A study of Homo sapiens with 5 samples.

Results

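The 9 genes of class I antigen presentation followed here were measured in RNA of lung adenocarcinoma cells: HLA-B, HLA-C, HLA-E, HLA-F, B2M, TAP1, TAP2, TAPBP and NLRC5. They were chosen by gene symbol with earlier results of these data known, and the rule itself used no measured value. Each gene is the sum of its transcripts that GENCODE v44 places on a primary chromosome. All 9 were found among the 26426 genes with at least 1 read, and all 9 passed the read filter used for testing. Other class I heavy-chain genes were not analysed here. RNA came from 2 established human lines, NCI-H1975 and HCC827, grown separately to near confluency in the same medium with serum and antibiotics, with no cytokine or other agent named in the labels. One RNA preparation of each line was mixed by mass, and poly(A) RNA was read as amplified cDNA on a nanopore PromethION flow cell. The labels name synthetic spike-in RNAs called sequins, mix A in NCI-H1975 and mix B in HCC827. There were 5 libraries, 1 for each ratio of NCI-H1975 to HCC827, namely the pure RNAs (100:0 and 0:100) and mixtures at 75:25, at 50:50 and at 25:75. Because no ratio was repeated, the trend along the series compares 2 RNA preparations and not cultures of the 2 lines.

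Class I molecules show fragments of the cell's own proteins to cytotoxic T cells and natural killer cells. A polymorphic or conserved heavy chain pairs with beta-2-microglobulin, and the pair receives a peptide in the endoplasmic reticulum from the TAP transporter, to which tapasin holds it. Most genes of the pathway respond to interferon, and NLRC5 is the transactivator that acts on class I promoters together with RFX and NF-Y factors. Lung epithelial cells carry class I on their surface, and lung tumours are known to lose parts of the pathway.

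The promoters are shown first because these genes are known for a shared arrangement of promoter elements and yet did not all run the same way along the series. Each line gives the 250 bases before a RefSeq start (GRCh38.p14), 5′ to 3′ on the strand of the gene. Capitals mark 4 motifs searched on both strands: the interferon-response type GAAANNGAA, the box CCAAT, the core TGACG, and the NF-kB consensus. A match on the other strand appears as its reverse complement. Overlapping matches merge into 1 run of capitals. RefSeq windows were at hand for 7 of the 9 genes, and those of HLA-B (chr6:31357180-31357429, minus strand), HLA-C (chr6:31272093-31272342, minus strand), HLA-F (chr6:29723184-29723433, plus strand), B2M (chr15:44711267-44711516, plus strand), TAP1 (chr6:32853705-32853954, minus strand) and TAP2 (chr6:32838740-32838989, minus strand) follow.
HLA-B: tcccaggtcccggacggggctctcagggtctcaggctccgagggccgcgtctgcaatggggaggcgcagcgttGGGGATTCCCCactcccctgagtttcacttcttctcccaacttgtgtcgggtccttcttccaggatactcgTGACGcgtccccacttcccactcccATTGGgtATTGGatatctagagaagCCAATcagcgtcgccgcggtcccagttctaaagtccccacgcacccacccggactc
HLA-C: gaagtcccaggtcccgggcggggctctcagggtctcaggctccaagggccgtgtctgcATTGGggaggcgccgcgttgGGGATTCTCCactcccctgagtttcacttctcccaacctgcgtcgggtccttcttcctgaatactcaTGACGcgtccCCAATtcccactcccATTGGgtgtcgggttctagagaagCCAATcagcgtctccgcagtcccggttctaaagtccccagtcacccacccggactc
HLA-F: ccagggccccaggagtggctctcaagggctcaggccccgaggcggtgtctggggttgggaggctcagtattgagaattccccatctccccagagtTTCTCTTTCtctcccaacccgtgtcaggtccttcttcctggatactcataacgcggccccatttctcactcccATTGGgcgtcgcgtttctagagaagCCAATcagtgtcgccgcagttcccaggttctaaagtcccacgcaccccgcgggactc
B2M: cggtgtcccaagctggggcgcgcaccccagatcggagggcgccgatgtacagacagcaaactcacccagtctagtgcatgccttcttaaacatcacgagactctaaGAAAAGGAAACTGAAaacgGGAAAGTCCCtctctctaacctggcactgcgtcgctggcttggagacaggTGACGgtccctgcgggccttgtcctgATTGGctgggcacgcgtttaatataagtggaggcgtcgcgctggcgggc
TAP1: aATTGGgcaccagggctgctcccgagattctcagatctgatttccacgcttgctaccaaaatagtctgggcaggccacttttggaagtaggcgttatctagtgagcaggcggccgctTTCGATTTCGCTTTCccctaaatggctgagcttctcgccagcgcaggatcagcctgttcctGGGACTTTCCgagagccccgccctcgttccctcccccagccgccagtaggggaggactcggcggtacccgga
TAP2: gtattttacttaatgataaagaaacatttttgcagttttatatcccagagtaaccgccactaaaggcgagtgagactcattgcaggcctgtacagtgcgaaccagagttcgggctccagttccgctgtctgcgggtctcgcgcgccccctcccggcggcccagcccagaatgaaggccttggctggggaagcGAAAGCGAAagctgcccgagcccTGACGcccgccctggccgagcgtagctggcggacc

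In the heavy-chain windows, HLA-B held 3 CCAAT matches and HLA-C 4, and each held 1 TGACG and at least 1 NF-kB match. HLA-B and HLA-C had 0 matches to the interferon-response type as written here. Sites with other letters or spacing were not searched, so an interferon-response element in these windows is not excluded. HLA-F held 2 CCAAT matches and 1 interferon-response type match, with no TGACG or NF-kB match. B2M held 2 interferon-response type matches and 1 each of the other three. TAP1 had 2 interferon-response type matches, 1 CCAAT and 1 NF-kB match in the window shown and none of the 4 motifs in the window of its other RefSeq start. TAP2 had 1 interferon-response type match and 1 TGACG, and TAPBP (not shown) had 2 interferon-response type matches and 1 NF-kB match. Among 35116 promoter windows of the same length, 6.88% held the interferon-response type, 32% CCAAT, 21.2% TGACG and 9.96% the NF-kB consensus. These are matches of letters only, and binding was not measured.

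Libraries held from 2932250 to 4058751 assigned reads. The library labelled 0:100 had 0 sequin reads among 3092629, which allows a share of up to 9.7e-05%, although its label names mix B. Sequins took 0.187%, 0.115%, 0.073% and 0.0412% of reads from 100:0 to 25:75, so their share fell in order with the share of NCI-H1975 RNA. Results are therefore also given without the 0:100 library. The read-weighted length of the assigned transcripts went from 2581 bases at 100:0 to 2180 bases at 0:100, and its part in the results was not tested. Of 7 lung epithelial marker genes, all 7 had at least 10 reads in a library, and their summed level went from 5616 to 15900 CPM (counts-per-million, with the scaling defined below). Of 6 leukocyte markers, 4 (PTPRC, CD3E, LYZ and NKG7) were at 0 in every library, and the list summed to between 0 and 19 reads. Of 5 fibroblast markers, DCN was at 0 and COL3A1 and LUM had at most 3 reads in a library. COL1A1 and COL1A2 took the list from 186 CPM at 100:0 to 7.44 at 0:100, and its part in the class I values was not tested. The 4 endothelial markers summed to 3 or 4 reads in each library.

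Levels are given as CPM after scaling with trimmed means (TMM), which sets most genes level between libraries. A slope below is log2 expression at 0:100 minus that at 100:0 on a straight line in the HCC827 mass fraction. The line was fitted over the libraries and tested with the quasi-likelihood (QL) test of edgeR. P-values were adjusted over all 13492 genes tested, with a threshold of 0.05. A slope can differ from the log2 ratio of the pure libraries, which was -1.63 for TAP2 under TMM against a slope of -1.26. Scaling matters here. Over all genes the median slope stood at -0.035 with TMM, against -0.44 with total reads as the only scaling, so each direction below is relative to TMM. Each level is a share of RNA, so fewer cells that express a gene and less of its RNA per cell cannot be told apart.

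Of the 9 genes, 5 passed the threshold, where 45.8% of all genes did. HLA-B and HLA-F rose toward HCC827 (23.5% of all genes rose), and HLA-C, B2M and TAP2 fell (22.3% of all genes fell). HLA-E, TAP1, TAPBP and NLRC5 did not pass. The share that passed was near that of all genes, and the median slope of the 9 was -0.13. Under TMM the called genes thus ran in both directions, as the calls over all genes did, so the split is not particular to the pathway. Under library totals 1 of the 9 rose and 5 fell, and the rise of HLA-B was lost. HLA-F rose and HLA-C, B2M and TAP2 fell under both scalings.

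HLA-B, a classical heavy chain that presents peptides to CD8 T cells, lies on the minus strand of chromosome 6 (ENSG00000234745.14, 31353872 to 31367067). Its level was 433, 435, 476, 540 and 567 CPM from 100:0 to 0:100, on 1470 to 1879 reads a library. Values ran upward in order, with both NCI-H1975-rich libraries lowest and the 0:100 library highest. The slope was 0.44 ± 0.11 (SE, edgeR QL test, adjusted p = 0.00720, n = 5 libraries). Scaled by library totals the level was 501, 463, 478, 502 and 493 CPM, and the call was lost with a slope of 0.027 (edgeR, adjusted p = 0.853).

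HLA-C, the other classical heavy chain followed here and a main ligand of killer-cell immunoglobulin-like receptors, is also on the minus strand (ENSG00000204525.18, chromosome 6, 31268749 to 31272130). It had 197, 174, 162, 180 and 127 CPM along the series, on 341 to 751 reads. The 0:100 library was the lowest by a wide step, while 25:75 stood above 50:50. The slope was -0.47 ± 0.15 (SE, edgeR QL test, adjusted p = 0.0229). Under library totals it was -0.88 (edgeR, adjusted p = 0.000397). The call rested on both ends of the series. Without the 0:100 library the slope was -0.21 (edgeR, adjusted p = 0.388), and without 100:0 it was -0.44 (edgeR, adjusted p = 0.0681).

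HLA-E presents leader peptides of other class I chains to the NKG2 receptors of natural killer cells (ENSG00000204592.9, chromosome 6, 30489509 to 30494194, plus strand). Its level was 182, 162, 149, 157 and 166 CPM, highest at 100:0 and lowest at 50:50. The slope of -0.13 ± 0.13 (SE, edgeR QL test, adjusted p = 0.450) did not pass, with a 95% interval from -0.41 to 0.15. Its sign turned to 0.079 without the 100:0 library. Under library totals values fell in order from 211 to 145 CPM and the slope passed at -0.53 (edgeR, adjusted p = 0.00409), close to the median of -0.44 of all genes there.

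HLA-F is a non-classical chain that can bind natural killer receptors (ENSG00000204642.14, chromosome 6, 29722775 to 29738528, plus strand). Its level was 16.2, 18.5, 25.9, 31.8 and 38.3 CPM, resting on 55, 80, 101, 91 and 103 reads. Values ran upward in order under both scalings. The slope was 1.31 ± 0.22 (SE, edgeR QL test, adjusted p = 0.000365), the steepest rise among the 9 genes. The 0:100 level was 2.36 times that of 100:0 (95% exact counting interval 1.69 to 3.34). Under library totals the slope was 0.90 (edgeR, adjusted p = 0.00406), and without the 0:100 library it was 1.38 (edgeR, adjusted p = 0.00612).

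B2M encodes the light chain that every classical class I heavy chain needs to reach the surface (ENSG00000166710.23, chromosome 15, 44711358 to 44718851, plus strand). It had the most reads of the 9 genes, with 1428, 1401, 1328, 1149 and 959 CPM on 2580 to 6049 reads. Values fell in order, slowly at first and then in larger steps past 50:50. The slope was -0.57 ± 0.12 (SE, edgeR QL test, adjusted p = 0.00141). The 0:100 level was 0.672 times that of 100:0 (95% exact counting interval 0.640 to 0.705). Under library totals the slope was -0.98 (edgeR, adjusted p = 2.1e-05), and without 0:100 it was -0.41 (edgeR, adjusted p = 0.0272).

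**Figure D1:**
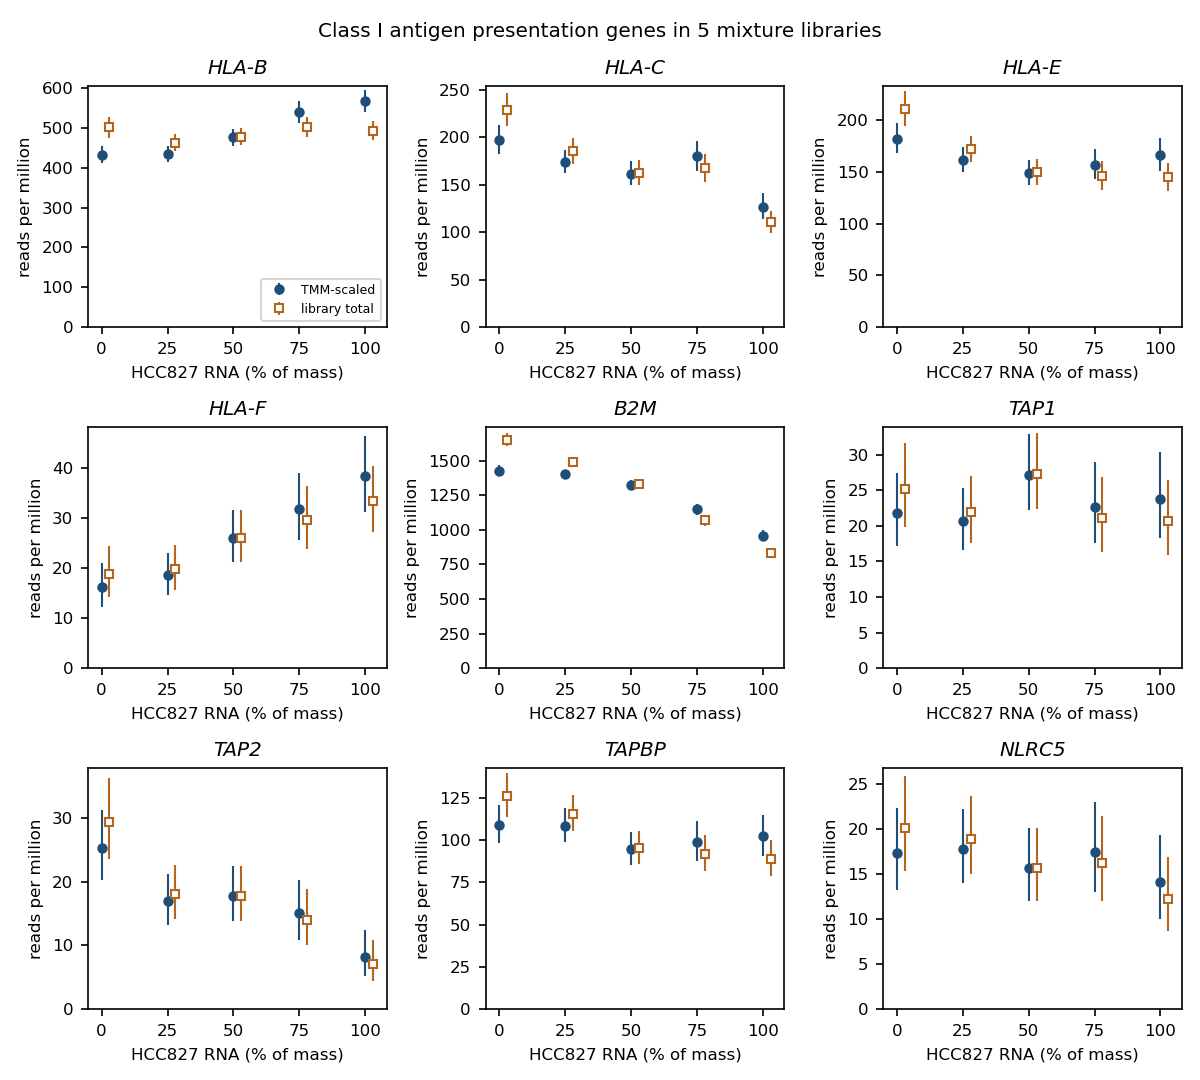
Level of each of the 9 genes (y, CPM, from 0) against the HCC827 share of RNA mass (x, %) in 5 libraries. Filled points are TMM-scaled, open squares are scaled by library totals and shifted right by a small step, and bars are 95% exact Poisson intervals, which cover counting error only. HLA-F rises from 16.2 to 38.3 CPM and B2M falls from 1428 to 959 CPM under TMM, while the rise of HLA-B from 433 to 567 CPM is not seen in the squares.

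TAP1 and TAP2 are the paired subunits of the peptide transporter, encoded near each other on the minus strand of chromosome 6. TAP1 (ENSG00000168394.13, 32845209 to 32853816) had 21.8, 20.6, 27.2, 22.7 and 23.8 CPM, with no order along the series and overlapping counting intervals. Its slope was 0.17 ± 0.25 (SE, edgeR QL test, adjusted p = 0.602), with a 95% interval from -0.36 to 0.70. The sign turned under library totals, to -0.24.

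TAP2 (ENSG00000204267.19, 32821833 to 32838739) had 25.3, 16.9, 17.7, 15.0 and 8.18 CPM, on 86, 73, 69, 43 and 22 reads. The 100:0 library was highest and 0:100 lowest, with the inner libraries close together between them. The slope was -1.26 ± 0.31 (SE, edgeR QL test, adjusted p = 0.00494). The 0:100 level was 0.323 times that of 100:0 (95% exact counting interval 0.192 to 0.521). As for HLA-C, the call needed both ends. The slope was -0.92 without 0:100 (edgeR, adjusted p = 0.0843) and -1.13 without 100:0 (edgeR, adjusted p = 0.0530).

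TAPBP encodes tapasin, which bridges the transporter and the empty class I molecule (ENSG00000231925.14, chromosome 6, 33299694 to 33314284, minus strand). It had 109, 109, 94.95, 98.9 and 102 CPM on 275 to 469 reads, with the inner 50:50 library lowest. Its slope was -0.13 ± 0.13 (SE, edgeR QL test, adjusted p = 0.434), with a 95% interval from -0.42 to 0.15. Under library totals it passed at -0.54 (edgeR, adjusted p = 0.00404), again near the median of all genes under that scaling.

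NLRC5, the class I transactivator, is on chromosome 16 (ENSG00000140853.17, 56989485 to 57083531, plus strand). It had 17.4, 17.8, 15.7, 17.5 and 14.1 CPM on 38 to 77 reads, with 0:100 lowest and the other four close together. The slope was -0.24 ± 0.27 (SE, edgeR QL test, adjusted p = 0.489). Its 95% interval, from -0.82 to 0.34, includes a change as large as that of B2M.

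**Figure D2:**
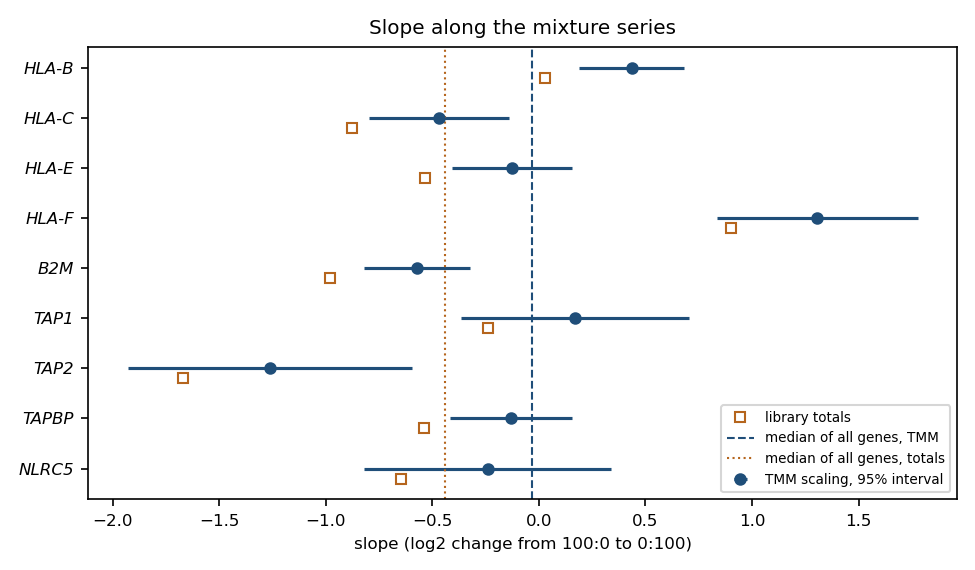
Slope of each gene along the series (x, log2 change from 100:0 to 0:100). Filled points and bars are TMM slopes with 95% intervals, open squares are slopes under library totals, and the dashed and dotted lines mark the median of all genes at -0.035 and -0.44. HLA-F lies to the right of both medians and TAP2, B2M and HLA-C to the left of them, each under its own scaling.

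Ratios between genes within a library do not depend on scaling, and they were set side by side as a description chosen after the values were seen. Of the reads of HLA-B and HLA-C together, HLA-B took 68.7% at 100:0 (95% Wilson interval 66.7 to 70.6), then 71.4%, 74.7% and 75.0%, and 81.7% at 0:100 (79.9 to 83.4). HLA-B thus had 2.19 reads for each HLA-C read in the NCI-H1975 RNA and 4.47 in the HCC827 RNA. Intervals here and below cover counting error only, and copies made by PCR count as separate reads.

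For each B2M read there were 0.303 HLA-B reads at 100:0, then 0.311, 0.359 and 0.470, and 0.591 at 0:100. The balance of this heavy chain to the light chain transcript therefore moved upward in order. HLA-F took 8.17% of the reads of HLA-F and HLA-E at 100:0 (95% Wilson interval 6.33 to 10.5) and 18.7% at 0:100 (15.7 to 22.2). TAP2 took 53.8% of the reads of both transporter subunits at 100:0 (46.0 to 61.3), then 45.1%, 39.4% and 39.8%, and 25.6% at 0:100 (17.5 to 35.7). The TAP2 share was highest at 100:0 and lowest at 0:100, where it rested on 86 reads of both genes. These are shares of reads, not of levels per length.

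**Figure D3:**
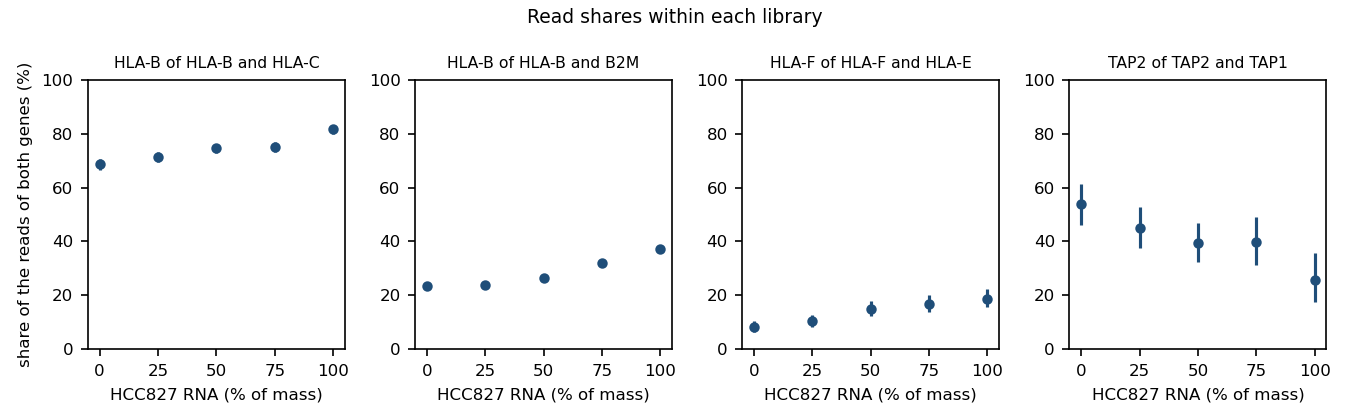
Share of the first gene among the reads of 2 genes in the same library (y, %, 0 to 100) against the HCC827 share of RNA mass (x, %), with 95% Wilson intervals. The HLA-B share goes from 68.7% to 81.7% against HLA-C, and the TAP2 share from 53.8% to 25.6% against TAP1.

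A nanopore cDNA read starts from 1 molecule, so CPM was not divided by length above. Per kilobase of the assigned transcripts, B2M had 894 TMM-scaled CPM at 100:0, HLA-B 438, HLA-C 134, HLA-E 71.5, TAPBP 29.2, HLA-F 15.4, TAP1 8.04, NLRC5 5.08 and TAP2 4.56. At 0:100 B2M had 605 and HLA-B 588 on that scale. HLA-F (39.7) stood above TAPBP (27.3) there, and TAP2 (1.45) was again the lowest. Before division by length HLA-F was below TAPBP in the same library, at 38.3 against 102 CPM. The mean lengths used were 983 bases for HLA-F and 3737 bases for TAPBP. The values per kilobase use the deposited lengths, whose read-weighted mean was 979 bases for HLA-B and 1592 bases for B2M. With GENCODE v44 lengths, an alternative chosen after seeing the data, the means were 3077 and 1336 bases. HLA-B then had 142 at 100:0 and 182 at 0:100, against 1061 and 727 for B2M, so how close the 2 genes lie per kilobase depends on the lengths used.

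The mixed libraries show how closely each gene followed the mixture. The expected reads came from the 2 pure libraries and the HCC827 share of reads estimated over 10019 genes, which was 32.7%, 55.4% and 78.2% in the order of the series. Of the 27 values (9 genes in 3 mixed libraries), 7 had an expected count outside the 95% Poisson interval of the reads. That is 25.9%, against 20.2% of values over all genes tested. All 7 belonged to genes with at least 1000 reads in total, where 7 of 15 values lay outside, against 30.4% of values for all genes that deep. B2M was above expectation in each mixed library, at 1.08, 1.11 and 1.06 times. HLA-C was 1.23 times its expectation at 25:75 (515 reads against 419), and HLA-E was 0.908 and 0.859 times at 75:25 and 50:50. HLA-B was 0.928 times at 75:25. Against the nominal mass fractions, B2M stood at 1.07, 1.11 and 1.07 times with TMM and at 1.03, 1.07 and 1.03 times with library totals. The Poisson intervals leave out counting error in the pure libraries, from which each expected count was built. They also leave out variation between libraries, which a single library per ratio cannot give.

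Transcript models were read next, because long reads can show which form of a gene was sequenced. The 9 genes had 92 transcript models in the tables, of which 69 had reads and 32 passed the filter. Of the 32, 10 passed the threshold (edgeR QL test of the slope), where 33.6% of all 31758 transcripts did, with 4 rising and 6 falling. Under library totals 13 passed, 1 rising and 12 falling, where 11955 of all transcripts passed with a median slope of -0.38. Isoform usage was tested for 7455 genes with edgeR diffSpliceDGE, of which 0.402% were called. None of the 6 class I genes with at least 2 tested transcripts was called, and none had an unadjusted Simes p under 0.05, the lowest being 0.518 for HLA-C. The gene-level F test also called 0 of them.

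B2M reads fell almost wholly on 3 models. The protein-coding B2M-211 held 37.0% of them over all libraries, the retained-intron model B2M-210 held 32.2% and the nonsense-mediated decay model B2M-208 held 29.0%. Each share was nearly the same in both pure libraries, at 36.3% and 38.2% for B2M-211. All 3 fell along the series, with slopes of -0.59, -0.68 and -0.61 (edgeR QL test, adjusted p = 0.00204, 0.00101 and 0.00233). The 3 end at the same base, 44718145, in GENCODE v44. How reads that match several models were divided is not stated, so these shares cannot be read as 3 forms of RNA.

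HLA-B reads went mostly to HLA-B-253 (40.2%) and HLA-B-254 (39.0%), annotated as retained-intron models, and 20.7% went to the protein-coding HLA-B-249. The deposited tables give HLA-B-253 and HLA-B-254 lengths of 753 and 917 bases, against 1536 bases for HLA-B-249. In GENCODE v44 the same identifiers have 3525 and 3432 bases, so the sequence behind these reads is uncertain. Both models rose, with slopes of 0.40 and 0.46 (edgeR QL test, adjusted p = 0.0371 and 0.0149). HLA-B-249 did not pass, at 0.17 ± 0.16 (SE, edgeR QL test, adjusted p = 0.434). The difference between these slopes was tested only through isoform usage, which was not called for HLA-B. Without the 0:100 library 2 transcripts of the 9 genes passed, and DESeq2's Wald test on all libraries called 6. Over all transcripts the same fits called 6290 and 6072, against 10660 in the main fit.

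HLA-C reads were spread over 6 tested models with 13.3% to 20.2% each. The 2 with most reads, HLA-C-208 and HLA-C-201, had slopes of -0.34 and -0.27 that did not pass. HLA-C-203, a protein-coding model, fell by 0.97 on the log2 scale and HLA-C-205, a retained-intron model, by 0.83 (edgeR QL test, adjusted p = 0.00324 and 0.0158). For HLA-F the leading models were HLA-F-218 with 20.5% and HLA-F-219 with 19.5%. HLA-F-219 and HLA-F-229 rose, with slopes of 1.47 and 2.14 (edgeR QL test, adjusted p = 0.0377 and 0.0145), on 6 to 24 and 5 to 21 reads a library.

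Of the other genes, HLA-E, TAPBP and TAP2 were read almost wholly as 1 form. HLA-E-201 held 100.0% of HLA-E reads to 1 decimal, TAPBP-234 held 98.9% of TAPBP reads and TAP2-201 held 96.6% of TAP2 reads, with a slope of -1.37 ± 0.29 for TAP2-201 (SE, edgeR QL test, adjusted p = 0.00136). TAP1 reads were divided between the protein-coding TAP1-201 (49.7%) and a retained-intron model (48.0%), neither of which passed. NLRC5 reads were scattered over 17 models, and its longest, NLRC5-201 of 6822 bases, held 14.0%.

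Some of these reads could belong elsewhere. Of the 31-base words in HLA-B-249, 15.5% also occur in GENCODE v44 transcripts of other genes. For HLA-B-253 and HLA-B-254, which held most HLA-B reads, the share was 46.0% and 45.4% over their GENCODE v44 sequences, which are longer than the deposited lengths. For the HLA-C models with equal lengths in both sources the share ran from 9.81% to 19.7%. It was 12.0% for HLA-E-201, 4.45% to 15.5% for HLA-F models, at most 0.61% for B2M models and 0% for NLRC5. TAP2-201 shared 35.5%, and it overlaps a longer protein-coding gene model on the same strand (ENSG00000250264) that held 2 reads. Genes of the opposite strand overlap TAP1, namely PSMB9 with 1024 reads and PSMB8-AS1 with 372, where TAP1 had 398, and whether strand was used in counting is not stated. Heavy-chain alleles of the 2 lines may differ from the reference, and the effect of that on read assignment was not tested.

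The genes around the pathway were read in the same fit, from lists of 51 genes of which 50 were tested. Of these, 25 passed, 16 rising and 9 falling, against 45.8% of all genes, and their median slope was 0.015. Scaled by library totals, 30 passed with 13 rising and 17 falling, where 6887 of all genes passed with a median slope of -0.44. Without the 0:100 library 17 passed, 13 rising and 4 falling, where 4067 of all genes passed. The main fit called 6175 of all genes.

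Genes that supply peptides moved in both directions. Of 10 genes, 5 rose, 2 fell and 3 did not pass. That is 70% of the list past the threshold, against 45.8% of all genes, of which 23.5% rose and 22.3% fell. PSMB8 and PSMB10, catalytic subunits of the immunoproteasome, had 63.9 and 11.5 CPM at 100:0 and 137 and 61.7 CPM at 0:100, with slopes of 1.05 and 2.11 (edgeR QL test, adjusted p = 3.97e-05 and 4.86e-05). PSME1 and PSME2, the paired subunits of the PA28 proteasome activator, rose with slopes of 1.43 and 1.07 (edgeR, adjusted p = 1.25e-05 and 2.05e-05). PSMB9, the remaining immunoproteasome subunit and the neighbour of TAP1, did not pass, with 56.0 and 65.8 CPM in the pure libraries and a slope of 0.16 ± 0.15 (SE, edgeR QL test, adjusted p = 0.422). Its sign turned under library totals, to -0.25.

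The aminopeptidases that trim peptides also differed in direction. ERAP2 had 81.9, 69.0, 41.6, 27.3 and 4.46 CPM in falling order, with a slope of -2.97 ± 0.39 (SE, edgeR QL test, adjusted p = 6.48e-05). It rested on 278 reads at 100:0 and 12 at 0:100. Its partner ERAP1 went from 15.3 to 24.9 CPM, with a slope of 0.76 (edgeR, adjusted p = 0.0217) that did not pass under library totals, at 0.36 (edgeR, adjusted p = 0.241), by DESeq2's Wald test, or without the 100:0, 75:25 or 0:100 library. LNPEP, an endosomal aminopeptidase, fell with a slope of -0.84 (edgeR, adjusted p = 0.0197). That call was lost by DESeq2's Wald test, without 75:25, without 25:75 and without 0:100, where the slope was -0.64 (edgeR, adjusted p = 0.178). The peptidases TPP2 and THOP1 had slopes of -0.095 and -0.018 and did not pass. The signs of both turned when some single libraries were left out, and THOP1 passed under library totals at -0.42 (edgeR, adjusted p = 0.0337).

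Of the 5 loading chaperones, 2 fell and 3 did not pass, so 40% passed, against 45.8% of all genes. CALR, the calreticulin that holds class I in the loading complex, fell in order from 1221 to 618 CPM, and PDIA3, its oxidoreductase partner, from 334 to 168 CPM (slopes -0.93 and -0.88, edgeR QL test, adjusted p = 2.43e-05 and 0.000372). CANX, the membrane-bound lectin chaperone, had a slope of -0.28 and UGGT1, which re-marks unfolded glycoproteins, one of -0.035, whose sign turned without the 75:25, 25:75 or 0:100 library. TAPBPL, a tapasin-like peptide editor, had a slope of 0.58 (edgeR, adjusted p = 0.0800). CANX and UGGT1 passed under library totals, at -0.69 and -0.44, and CANX also passed at -0.47 without 100:0 and at -0.33 with 10 reads required in every library.

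Of 20 genes of interferon signalling and class I transcription factors, 7 rose, 3 fell and 10 did not pass. The 50% that passed was near the 45.8% of all genes. Among the 20, those that rose with a slope of at least 1 were NFYC (1.78), RFXANK (1.42), RELA (1.25) and STAT2 (1.02) (edgeR, adjusted p = 4.51e-05, 0.000356, 3.06e-05 and 0.00331). RFXANK and NFYC are subunits of the RFX and NF-Y complexes that bind class I promoters. RFX5, another RFX subunit, fell with a slope of -0.86 (edgeR, adjusted p = 0.0288). Its call was lost by DESeq2's Wald test, without 75:25, without 25:75 and without 0:100. RFXAP, the remaining RFX subunit, had 7 to 16 reads a library and did not pass. NFYB, another NF-Y subunit, fell with a slope of -1.24 (edgeR, adjusted p = 0.0205), and it did not pass without the 0:100 library or without 25:75. Its level was 27.4, 45.9, 24.1, 17.8 and 15.6 CPM, so the 75:25 mixture stood above both pure libraries. Without 75:25 the NFYB slope was -0.82. IFNGR1, the ligand-binding chain of the interferon-gamma receptor, fell in order from 31.8 to 11.9 CPM with a slope of -1.37 (edgeR, adjusted p = 0.00145), and without 100:0 it did not pass at -0.89. STAT2 did not pass without 0:100, at 0.71. IRF1, a transcription factor induced by interferon gamma, had a slope of 0.049 and did not pass under TMM. Its sign turned under several alternatives, and under library totals it was -0.36 (edgeR, adjusted p = 0.124).

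**Figure D4:**
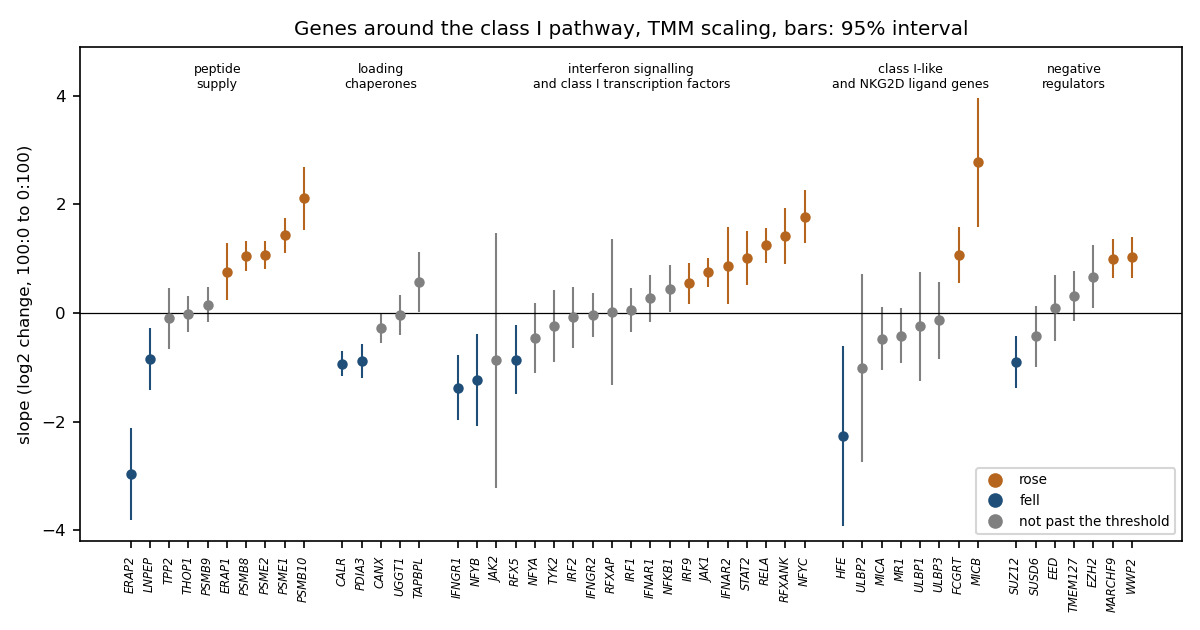
Slope (y, log2 change from 100:0 to 0:100, TMM scaling) of tested genes around the pathway, grouped by list and ordered by slope, with 95% intervals. Orange genes rose, blue genes fell and grey genes did not pass the threshold. PSMB10 at 2.11 and ERAP2 at -2.97 stand at the ends of the peptide supply list.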

How the data were processed

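The genes and lists were chosen with earlier results of these data known. The authors deposited 1 table per library of estimated counts of reads per transcript, with a transcript length (another, unscaled quantity). The submitters' processing notes name minimap2 2.24, Salmon 1.9.0 and GRCh38, with no role or order. The annotation release and the use of strand are not given in the sources used here. Counts were rounded (2 values were not whole), 161 repeated identifiers were summed, and transcripts were joined to genes through GENCODE v44 (GRCh38, 1-based), which matched 224076 of 227751 human identifiers. Of 41 class I transcripts with at least 10 reads, 7 had another length in GENCODE v44 than in the deposited tables.

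Slopes on the HCC827 mass fraction over 5 libraries came from the quasi-likelihood (QL) test of edgeR 4.0.16 (R 4.3.3). Settings were TMM scaling, a filter of 10 reads in 2 or more libraries and Benjamini-Hochberg adjustment over all features. The fit was also run on simulated data in which far fewer genes changed than were called here, so that run does not measure its error in these data. The standard error is the slope over the square root of F. The HCC827 share of reads was a multinomial weight between both pure profiles. It used genes whose pure libraries summed to 50 reads or more, with a pseudocount of 0.5. Alternatives were DESeq2 1.42.0 size factors and Wald test, library totals, no read filter, 10 reads in every library, the estimated share as covariate and leaving out each library. Named genes were all 9 members, genes that overlap them, the peptide supply and loading lists, other list genes past the threshold with a slope of at least 1 in size, and the 2 leading or called transcripts of each member. IRF1, RFX5, RFXAP, MICA, CD1D, SUZ12, EZH2 and EED were named after their values were seen. One listed gene is counted but not reported here. Counting intervals are exact or Wilson at 95%.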

Additional observations from a re-analysis of the deposited data

How the results depend on the processing

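The 9 genes were refitted under 11 alternatives. B2M, HLA-F and NLRC5 kept their direction and their side of the threshold in all 11. Scaling by library totals ended the call of HLA-B (0.027), gave calls to HLA-E (-0.53) and TAPBP (-0.54), and turned the sign of TAP1 (-0.24) and, between the pure libraries, of the log2 ratio of HLA-B (-0.024). It moved the calls from 2 rising and 3 falling to 1 rising and 5 falling, and the median slope of all genes to -0.44. Fits without 1 library gave HLA-E slopes from -0.31 to 0.079, positive without 100:0. Fits that each left out 1 library called from 3 to 5 of the genes, with 3 without 100:0 or 0:100, where HLA-C and TAP2 lost their calls. They called from 2 to 9 of their transcripts, with 2 without 0:100. Calls over all genes fell too, from 6175 in the main fit to 4675 without 100:0 and 4067 without 0:100. Calls over all transcripts fell from 10660 to 6290 without 0:100. DESeq2's Wald test called 5 genes but 6 transcripts against 10. Over all transcripts it likewise called fewer, 6072 against 10660, and the cause was not tested. Calls among the pathway lists ran from 17 without 0:100 to 30 under library totals, where 4067 and 6887 of all genes were called. No class I gene was called for isoform usage in any setting, where the fits without 1 library called 4 to 20 genes in all. No paired analysis was possible because each ratio has 1 library. TAP1, TAP2, NLRC5 and HLA-F had 22 to 106 reads a library, and their slopes had the widest intervals of the 9 genes.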

Other observations

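Class I-like genes and ligands of the activating receptor NKG2D were read from a list of 9, of which 8 were tested. Of these, 2 rose, 1 fell and 5 did not pass. The share that passed was 37.5%, against 45.8% of all genes. MICB, a stress-induced ligand, had 4 reads at 100:0 and 35 at 0:100 and rose (slope 2.78 ± 0.55 SE, edgeR QL test, adjusted p = 0.00125). Its relative MICA had 19.7 and 13.4 CPM in the pure libraries and a slope of -0.47 (edgeR, adjusted p = 0.167), and under library totals it passed at -0.88 (edgeR, adjusted p = 0.0151). FCGRT, the neonatal Fc receptor heavy chain, which also pairs with beta-2-microglobulin, rose from 15.6 CPM to 32.0 CPM (slope 1.06, edgeR, adjusted p = 0.00303). HFE, a class I-like regulator of iron uptake, fell from 21 reads at 100:0 to 1 at 0:100, with a slope of -2.26 (edgeR, adjusted p = 0.0282), and did not pass without 0:100, without 25:75 or without 100:0. CD1D, a lipid-presenting chain, had 1 read in all libraries and was not tested.

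Of 7 genes that hold class I down, 2 rose, 1 fell and 4 did not pass. The share that passed was 42.9%, against 45.8% of all genes. The ubiquitin ligase genes WWP2 and MARCHF9 rose with slopes of 1.03 and 1.00 (edgeR, adjusted p = 0.000444 and 0.000402). SUZ12, a subunit of the repressive PRC2 complex, fell with a slope of -0.89 (edgeR, adjusted p = 0.00542), and without 0:100 it did not pass at -0.74 (edgeR, adjusted p = 0.0666). The catalytic subunit EZH2 had a slope of 0.67 (edgeR, adjusted p = 0.0531). It passed with DESeq2 size factors and without 25:75, at 0.69 and 0.81 (edgeR, adjusted p = 0.0473 and 0.0295). EED had a slope of 0.096, whose sign turned under library totals and without 0:100.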
